A study of Mus musculus with 12 samples.

Results

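The core circadian clock genes were followed across tissue and genotype as a check on the time of day at which the tissues were collected, which the labels do not give. The set holds 10 genes chosen by name, Arntl, Clock, Npas2, Per1, Per2, Per3, Cry1, Nr1d1, Nr1d2, and Dbp, and all 10 were found, 1 row each, among the 54532 gene IDs of every library. Colon and urinary bladder of 9 male mice, 5 to 7 weeks old, gave 12 RNA sequencing libraries, 3 for each genotype and tissue, each from a single mouse. The Ctrl mice carried floxed Yap1 and floxed Wwtr1 (the genes of the Hippo pathway coactivators YAP and TAZ) without Cre. The Y/T KO mice carried the same floxed alleles, on a mixed background, together with Myh11-CreERT2, a tamoxifen-dependent Cre on the Y chromosome that is driven by the smooth muscle myosin heavy chain promoter. Every mouse, Ctrl included, was injected with 1 mg tamoxifen daily on 5 days, and tissues were taken on day 7 after the first injection. Cre was thus expressed from a smooth muscle promoter in males alone, whereas RNA came from organ homogenates with all cell types. In such samples fewer cells of a type and less RNA per cell cannot be told apart. The numbers in the library titles were taken as mouse numbers. On that reading mice 788 (Ctrl), 783, and 780 (both Y/T KO) gave colon and bladder, and the other 6 mice gave a single tissue.

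The clock of mammalian cells is a feedback loop of transcription. Arntl (also called Bmal1) pairs with Clock or Npas2 and binds E-boxes, which turns on the Per, Cry, Nr1d, and Dbp genes, after which PER and CRY proteins inhibit the pair and the nuclear receptors encoded by Nr1d1 and Nr1d2 (REV-ERB alpha and beta) repress Arntl, Clock, and Npas2. In peripheral organs of mice the activator genes peak around the end of the night, when Dbp and the Nr1d genes are low, and the Dbp and Nr1d genes peak during the day, followed by the Per genes, so that the balance of these groups within a sample changes with the time of day.

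All 10 members have the same coordinates in the deposited tables and in GENCODE release M21 (build GRCm38). The loci are Arntl at chr7:113207465-113314126, Clock at chr5:76209868-76304792, Npas2 at chr1:39193731-39363236, Per1 at chr11:69095217-69109960, Per2 at chr1:91415982-91459324, Per3 at chr4:151003652-151044665, Cry1 at chr10:85131700-85185064, Nr1d1 at chr11:98767932-98775333, Nr1d2 at chr14:18204054-18239127, and Dbp at chr7:45705088-45710203. RefSeq windows of 250 bases before to 50 bases after a transcription start (build GRCm38.p6) were matched to 9 of the 10 members, 13 windows in all, with none for Per2. Both strands were searched for the E-box CACGTG, which occurs in 7.15% of all 32851 windows, for the D-box TTATGTAA or TTACGTAA (the element bound by Dbp, 1.056%), for the half-site AGGTCA bound by REV-ERB and ROR receptors (16.255%), and for the cyclic AMP response element TGACGTCA (1.79%). Overlaps between motifs were allowed. The E-box was found in windows of 2 members (Per1, Cry1), the D-box in 1 (Per3), the half-site in 4 (Arntl, Clock, Per1, Nr1d2), and the cyclic AMP response element in 0. The shares above are per window. Counted so, the E-box was in 2 of the 13 windows, the D-box in 1, and the half-site in 4. The stretches that hold these letters are printed for Per1, Per3, Nr1d2, Cry1, and Arntl, because they show which letters of the loop stand near each start. That of Clock is not printed, and the windows of Npas2, Nr1d1, and Dbp held none of the motifs. Each runs from 250 to 51 bases before the start, 5′ to 3′ on the gene's strand, and capitals mark the motifs, which for Per1 are the E-box and then the half-site read on the opposite strand.
Per1, chr11:69098699-69098898, plus strand: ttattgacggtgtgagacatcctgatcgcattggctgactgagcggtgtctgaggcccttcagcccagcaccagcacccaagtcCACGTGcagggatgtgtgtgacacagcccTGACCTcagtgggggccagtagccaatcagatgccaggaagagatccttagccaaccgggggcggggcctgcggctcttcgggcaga
Per3, chr4:151044716-151044915, minus strand: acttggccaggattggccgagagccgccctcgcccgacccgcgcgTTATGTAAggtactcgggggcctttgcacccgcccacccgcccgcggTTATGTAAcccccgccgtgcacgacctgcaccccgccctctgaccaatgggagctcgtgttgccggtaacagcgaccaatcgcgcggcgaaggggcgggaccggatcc
Nr1d2, chr14:18239157-18239356, minus strand: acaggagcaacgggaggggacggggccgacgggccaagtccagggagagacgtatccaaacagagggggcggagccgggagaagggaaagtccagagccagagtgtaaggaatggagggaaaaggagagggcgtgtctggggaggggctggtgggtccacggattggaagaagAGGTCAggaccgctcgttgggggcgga
Cry1, chr10:85185105-85185304, minus strand: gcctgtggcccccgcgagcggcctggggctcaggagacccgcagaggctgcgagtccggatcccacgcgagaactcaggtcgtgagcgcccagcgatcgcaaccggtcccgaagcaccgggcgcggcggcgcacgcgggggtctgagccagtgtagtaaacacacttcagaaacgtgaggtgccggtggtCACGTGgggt
The Arntl half-site begins at base 32 after the start, in the untranslated part of the first exon by GENCODE, and only the 30 bases around it are shown.
Arntl, chr7:113207530-113207559, plus strand: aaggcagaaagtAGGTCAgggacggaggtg
In Per1 the E-box begins 166 and the half-site 137 bases before the start, in Cry1 the E-box begins 60 bases before it, in Nr1d2 the half-site begins 77 bases before it, and in Per3 the D-boxes begin 205 and 158 bases before it. A match is only a description of the letters, and a motif missing from a window may lie elsewhere in the gene.

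The libraries held an estimated 2.80 to 3.94 gigabases of aligned sequence. Levels are given in TPM, a value per transcript length that sums to the same total in each library. For tests, TPM was divided by size factors, which ran from 0.966 to 1.11 within a tissue, and log2(TPM + 0.1) was fitted with limma over all expressed genes, so that fold changes of low genes are understated. Smooth muscle markers (8 genes, none at 0) summed to 7514 to 8261 TPM in Ctrl colon and 4936 to 5808 in Y/T KO colon, and to 35078 to 45673 in Ctrl bladder and 16706 to 30693 in Y/T KO bladder. Yap1 was at 45.8 to 54.9 TPM in Ctrl colon against 41.3 to 47.0 in Y/T KO colon and at 98.6 to 109.8 in Ctrl bladder against 69.4 to 72.1 in Y/T KO bladder, so that the genotypes overlapped in the colon and not in the bladder, and Wwtr1 overlapped in both tissues. Colon epithelial markers (9 genes) summed to at least 7312 TPM in every colon library and at most 191 in the bladder, where Muc2 and Cdx2 were at 0, and urothelial markers (7 genes) to at least 4524 in every bladder library and at most 40.3 in the colon. These marker values go with the labelled tissues. Among the members, the Y/T KO colon library of mouse 759 stood apart from the others of its group, with values without it given beside the results it moved most.

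Of the activators, Arntl and Npas2 were highest in Ctrl colon. Arntl was at 53.0, 76.5, and 58.6 TPM in the colon of Ctrl mice 788, 786, and 787, at 27.9, 42.0, and 31.4 in that of Y/T KO mice 759, 783, and 780, at 28.2, 28.7, and 20.0 in Ctrl bladder (mice 784, 785, and 788), and at 24.2, 26.8, and 21.2 in Y/T KO bladder (mice 782, 783, and 780). The colon genotypes did not overlap, whereas the bladder genotypes did, and Ctrl bladder overlapped with Y/T KO colon. Npas2, a paralog of Clock, was at 29.4, 29.7, and 28.0 TPM in Ctrl colon, 17.4, 24.3, and 18.8 in Y/T KO colon, 14.8, 12.2, and 8.58 in Ctrl bladder, and 10.02, 7.77, and 9.17 in Y/T KO bladder, with mice in the same order. Its groups stood in the same order as those of Arntl, and only the bladder genotypes overlapped. Npas2 was covered by few reads for its TPM, since its coverage per FPKM was 0.14 to 0.215 against 0.811 to 3.47 for the other members, and 2 of its 3 GENCODE transcripts hold 474 and 484 bases against 4236 in the longest. Clock, the usual partner of Arntl, ran from 16.6 to 50.9 TPM, and its 4 groups overlapped with their neighbors in the order of means. The highest Clock value belonged to Ctrl colon mouse 786, with the other 2 Ctrl colon libraries at 20.4 and 19.2 TPM.

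Of the inhibitors, Per1, which is also known to be induced by glucocorticoids and by cyclic AMP signals, was at 6.66, 7.44, and 6.89 TPM in Ctrl colon, 9.02, 13.1, and 11.7 in Y/T KO colon, 5.77, 12.7, and 13.9 in Ctrl bladder, and 19.2, 20.2, and 34.7 in Y/T KO bladder, with mice in the order given for Arntl. All Y/T KO values lay above all Ctrl values of the same tissue. Per2 ran from 2.97 to 8.49 TPM and Per3 from 4.68 to 14.0, and for both genes each group overlapped with its neighbor in the order of means. Cry1 was at 14.3, 16.3, and 14.6 TPM in Ctrl colon, 4.98, 10.6, and 14.1 in Y/T KO colon, 14.8, 14.6, and 9.63 in Ctrl bladder, and 14.1, 12.7, and 13.1 in Y/T KO bladder. The lowest Cry1 value of all 12 libraries was that of Y/T KO colon mouse 759, and the Y/T KO colon values lay below Ctrl, in mouse 780 by a small margin.

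The repressors of Arntl and the output factor Dbp, a PAR bZIP transcription factor, stood in the opposite order, with the bladder above the colon. Nr1d1 was at 26.5, 18.9, and 14.2 TPM in Ctrl colon, 38.9, 28.2, and 14.3 in Y/T KO colon, 71.1, 51.8, and 86.5 in Ctrl bladder, and 116.1, 51.6, and 56.8 in Y/T KO bladder. Its tissues did not overlap and its genotypes did. Nr1d2 was at 14.2, 20.2, and 12.8 TPM in Ctrl colon, 42.3, 19.1, and 19.2 in Y/T KO colon, 35.0, 39.4, and 50.8 in Ctrl bladder, and 52.9, 48.7, and 63.2 in Y/T KO bladder, and the Y/T KO colon value of mouse 759 lay among the bladder values. Dbp had the widest range of the members, 22.0-fold over the 12 libraries. It was at 7.11, 5.43, and 5.00 TPM in Ctrl colon, 39.0, 12.2, and 7.48 in Y/T KO colon, 37.5, 36.7, and 92.8 in Ctrl bladder, and 110.2, 49.5, and 72.2 in Y/T KO bladder. Every Y/T KO colon value lay above every Ctrl colon value, the one of mouse 780 narrowly, and the value of mouse 759 was above those of Ctrl bladder mice 784 and 785.

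**Figure D1:**
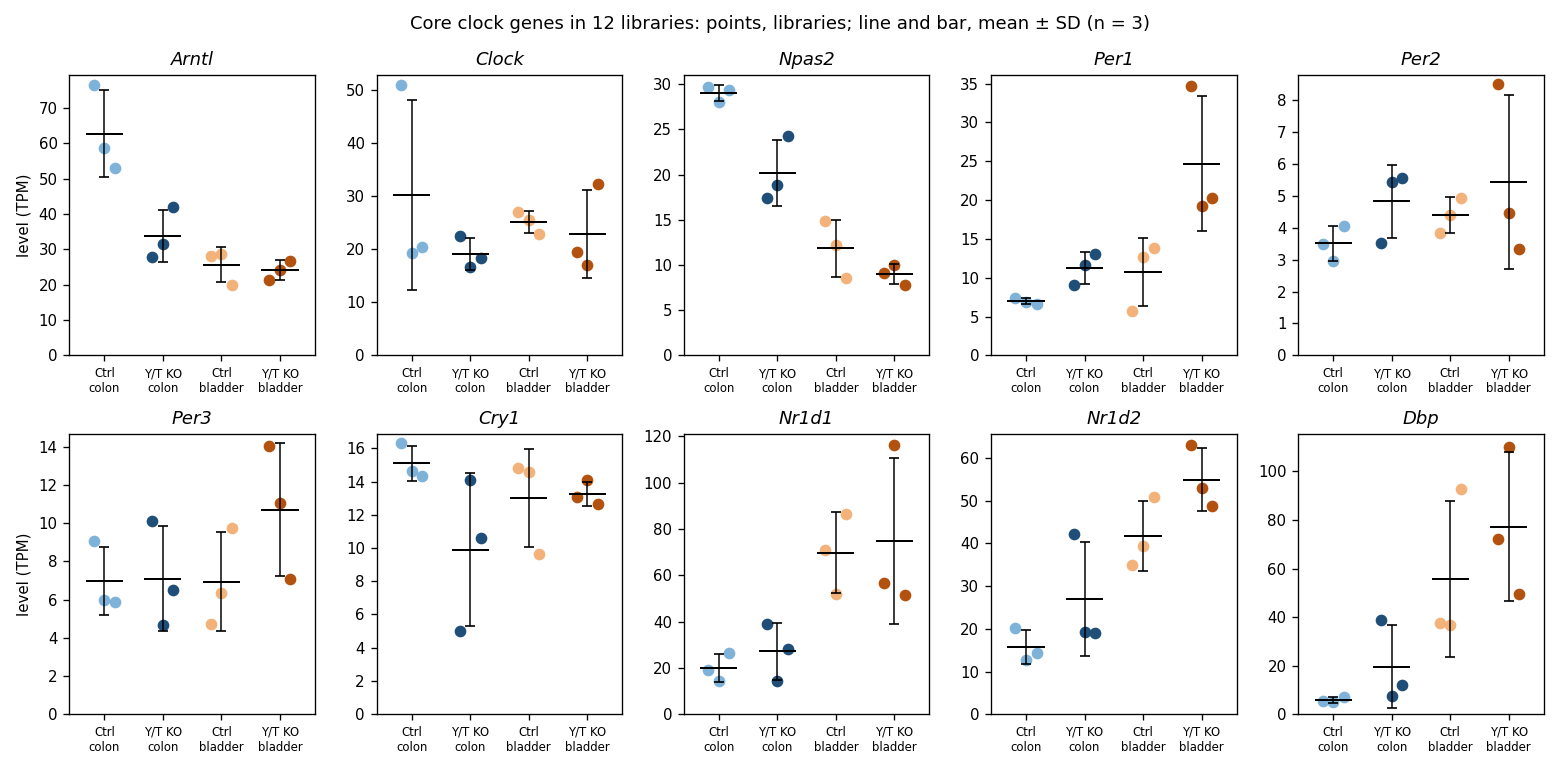
Levels of the 10 clock genes in TPM (linear axes from 0) in the 12 libraries, 1 panel per gene, with points for libraries and a line with bars for the mean ± SD of each group (n = 3). Arntl and Npas2 are highest in Ctrl colon, Nr1d1, Nr1d2, and Dbp are highest in the bladder, and Per1 is above Ctrl in every Y/T KO library of each tissue.

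The colon comparison asked whether clock genes differed between genotypes. None of the 10 members passed an adjusted p of 0.05 (limma, Benjamini-Hochberg over 17500 genes), where 24 genes did (0.137% of those tested). At an unadjusted p under 0.05 there were 4 members, Arntl, Npas2, Per1, and Dbp, against 9.73% of all genes. Arntl differed by a log2 of -0.86 (SE 0.19, adjusted p = 0.241), a level 0.552-fold that of Ctrl, and Npas2 by -0.50 (SE 0.17, adjusted p = 0.445). Per1 differed by 0.70 (SE 0.20, adjusted p = 0.372), and Dbp by 1.42 (SE 0.56, adjusted p = 0.492). The estimates of Nr1d2 (0.73, 95% interval -0.01 to 1.46) and Cry1 (-0.69, -1.52 to 0.14) pointed the same way as those of Dbp and Arntl, with intervals that included 0. Those of Nr1d1 (0.41), Clock (-0.48), Per2 (0.47), and Per3 (0.02) had wide intervals around 0 as well. In deposited TPM the genotypes did not overlap for 5 members, with Y/T KO above Ctrl for Per1 and Dbp (7.52% of all genes) and below it for Arntl, Npas2, and Cry1 (8.28%). After rescaling Nr1d2 also lay above. With 3 libraries against 3, an exact two-sided permutation test of a single gene cannot go below p = 0.1.

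Mouse 759 carried much of the Dbp, Nr1d1, Nr1d2, and Cry1 estimates in the colon. Without its library the log2 difference was 0.76 for Dbp, 0.10 for Nr1d1, 0.35 for Nr1d2, and -0.26 for Cry1, and that of Per3 turned to -0.26. Those of Arntl (-0.73), Npas2 (-0.40), and Per1 (0.85) stayed within 1.5 times their values with all libraries. The sum of smooth muscle markers in mouse 759, 5213 TPM, lay between those of mice 780 (4936) and 783 (5808), and macrophage markers (6 genes, none at 0) summed to 401 to 533 TPM in Ctrl colon and 526 to 785 in Y/T KO colon, with mouse 759 the lowest of the latter. The part of either in the clock gene values was not tested. Whether the genotypes were collected at different times or in different cohorts cannot be told apart from genotype here.

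In the bladder, where the same question was asked, none of the 10 members passed the adjusted threshold either (limma), against 55 of 18237 genes (0.302%). At an unadjusted p under 0.05 there were 2 members, Per1 and Nr1d2, against 14.8% of all genes. Per1 differed by a log2 of 1.23 (SE 0.38, adjusted p = 0.232), 2.35-fold Ctrl, and Nr1d2 by 0.40 (SE 0.15, adjusted p = 0.293). Per1 was the only member without overlap in deposited TPM, with Y/T KO above Ctrl (10.4% of all genes), and 0 members lay below (10%). After rescaling Nr1d2 also lay above. Without Ctrl mouse 784, whose Per1 was less than that of the other Ctrl bladders, the Per1 difference was 0.86, and without Y/T KO mouse 780 it was 0.97. The remaining estimates were -0.08 for Arntl (95% interval -0.55 to 0.39), 0.54 for Dbp (-0.46 to 1.55), 0.63 for Per3, 0.20 for Per2, 0.05 for Cry1, 0.03 for Nr1d1, -0.19 for Clock, and -0.37 for Npas2.

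Markers of other cell types also differed between bladder libraries. Skeletal muscle markers (5 genes, none at 0 in the bladder) summed to 1361 to 1826 TPM in Ctrl bladder and to 1262, 4434, and 5325 in Y/T KO mice 782, 783, and 780, and adipocyte markers (5 genes, none at 0) to 437 to 1739 in Ctrl and 1225 to 2337 in Y/T KO. The skeletal muscle sum of mouse 782 was below that of every Ctrl bladder, and its Per1 (19.2 TPM) and Dbp (110.2 TPM) were above every Ctrl value. Within Y/T KO bladder, Per1 (19.2, 20.2, and 34.7 TPM in mice 782, 783, and 780) stood in the same order as the skeletal muscle sums. Dbp (110.2, 49.5, and 72.2 TPM) did not. Skeletal muscle was not alone in ranking these mice so. Smooth muscle sums (30693, 20427, and 16706 TPM) and urothelial sums (5802, 4845, and 4524.5 TPM) stood in the exact reverse order. Adipocyte sums (1225, 2337, and 1504 TPM) followed neither order. The part of these cells in the clock gene values was not tested.

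**Figure D2:**
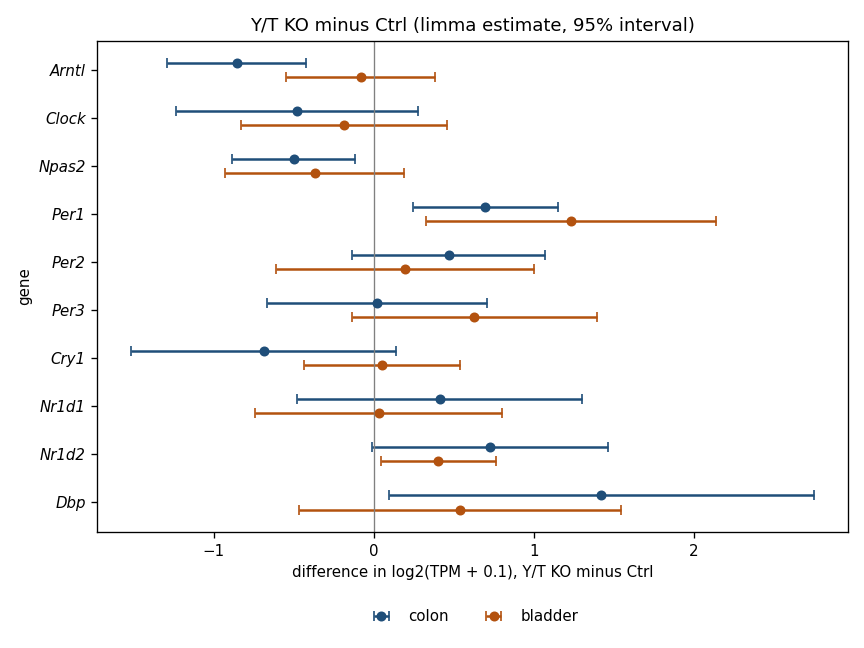
Difference between Y/T KO and Ctrl in log2(TPM + 0.1) for each clock gene (horizontal axis), with limma estimates as points and 95% intervals as bars, in colon (blue) and bladder (orange), 3 against 3 libraries each. The interval leaves out 0 for Arntl, Npas2, Per1, and Dbp in the colon and for Per1 and Nr1d2 in the bladder, without adjustment for multiple tests.

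The difference of the genotype effect between tissues was tested by interaction in all 12 libraries. None of the 10 members passed the adjusted threshold (limma), against 8 of 16298 genes (0.0491%), and 1 member, Arntl, had an unadjusted p under 0.05, against 12.6% of genes. For Arntl the bladder effect minus the colon effect was a log2 of 0.80 (SE 0.28, adjusted p = 0.296). A replicate block for the mouse gave 0.80 (adjusted p = 0.267). The corresponding values were 0.76 for Cry1 (95% interval -0.20 to 1.73), -0.86 for Dbp (-2.62 to 0.90), and 0.56 for Per1 (-0.40 to 1.51). Without the colon of mouse 759 they were 0.34 for Cry1, -0.18 for Dbp, and 0.41 for Per1, and 0.68 for Arntl (adjusted p = 0.264). The different outcomes of the colon and the bladder are therefore not shown to differ between tissues for any member.

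Bladder and colon were then compared within each genotype. In Ctrl mice 5 members were called between bladder and colon (limma, adjusted p under 0.05 over 19773 genes). Dbp was higher in the bladder by a log2 of 2.84 (SE 0.56, adjusted p = 0.00151), 7.17-fold, Nr1d1 by 1.56 (SE 0.39, adjusted p = 0.00666), and Nr1d2 by 1.15 (SE 0.28, adjusted p = 0.0046). Arntl was lower by -1.55 (SE 0.20, adjusted p = 6.2e-05) and Npas2 by -1.58 (SE 0.20, adjusted p = 6.1e-05), so that both stood at about 0.34-fold of the colon. Of all genes 25.3% were called higher and 25.1% lower in the bladder, so that the count of members, 3 higher and 2 lower, was near that background. Clock (-0.38), Per1 (0.26), Per2 (0.07), Per3 (-0.30), and Cry1 (-0.50) were not called.

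In Y/T KO mice the same 5 members were called in the same directions, and Per1 was called as well. Dbp was higher in the bladder by a log2 of 1.98 (SE 0.56, adjusted p = 0.0122), Nr1d1 by 1.2 (SE 0.39, adjusted p = 0.025), Nr1d2 by 0.85 (SE 0.28, adjusted p = 0.0227), and Per1 by 0.82 (SE 0.31, adjusted p = 0.0441). Arntl was lower by -0.75 (SE 0.20, adjusted p = 0.00892) and Npas2 by -1.42 (SE 0.20, adjusted p = 0.000132). Among all genes 25.6% were called higher and 25.8% lower. With the mouse as a replicate block the counts of called members were unchanged in both genotypes. The Per1 call was lost without any of the Y/T KO libraries except the bladder of mouse 782, and with the low-value filter removed (adjusted p = 0.0647). The Nr1d2 call was lost without the colon of mouse 783 (adjusted p = 0.0937), the colon of mouse 780 (0.0911), or the bladder of mouse 780 (0.0739), and the Nr1d1 call without the colon of mouse 780 (0.0944) or the bladder of mouse 782 (0.0963). Without the colon of mouse 759 the Dbp difference was 2.65, and Nr1d1, Nr1d2, Arntl, and Npas2 stayed called.

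Deposited TPM without size factors moves all bladder minus colon differences up by a log2 of 0.26 in Ctrl and 0.28 in Y/T KO, and the share of called genes that were higher in the bladder went from 50.2% to 64.3% in Ctrl and from 49.8% to 64.8% in Y/T KO. The called members kept their directions under this scaling, and Arntl in Y/T KO mice was no longer called (-0.47, adjusted p = 0.0693).

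**Figure D3:**
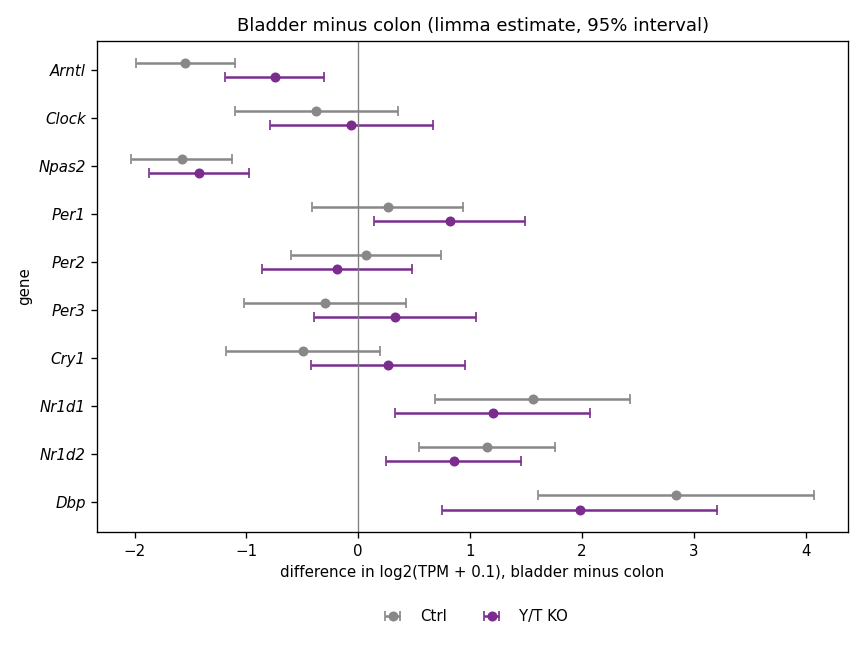
Difference between bladder and colon in log2(TPM + 0.1) for each clock gene, with limma estimates as points and 95% intervals as bars, in Ctrl (grey) and Y/T KO (purple) mice, 3 libraries per tissue. Dbp (2.84 and 1.98), Nr1d1, and Nr1d2 lie to the right of 0 and Arntl and Npas2 to the left in both genotypes.

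Mice that gave both tissues allow the comparison within an animal, provided that a shared title number marks a single animal. The correlations between their tissues across genes (-0.02, 0.09, and 0.06 for mice 788, 783, and 780) do not bear this out. In mice 788, 783, and 780 the bladder held 13.0, 4.05, and 9.65 times the Dbp TPM of the colon, and 0.379, 0.639, and 0.674 times its Arntl TPM. After rescaling, Dbp, Nr1d1, Nr1d2, and Per1 were higher and Arntl and Npas2 lower in the bladder in 3 of 3 mice, where 32.9% of all 16298 genes were higher and 36.3% lower in 3 of 3. The tissue difference in these genes was thus present within each pair of libraries taken as a single animal. Clock, Per2, Per3, and Cry1 differed in direction between the 3 mice.

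On the same assumed pairing, the clock gene values of an animal were compared between its tissues. Between Y/T KO mice 783 and 780 the order was the same in colon and bladder for 3 of 10 members, Arntl, Clock, and Nr1d2, against 55.7% of all genes. Some of these orders rest on a log2 difference near 0 in a tissue, so that the count is uncertain. These were Per2 (0.02) and Nr1d2 (-0.02) in the colon and Cry1 (0.04) and Nr1d1 (-0.05) in the bladder. Dbp was higher in mouse 783 than in mouse 780 by a log2 of 0.69 in the colon and lower by 0.46 in the bladder (783 minus 780, -0.46), and Nr1d1 differed by 0.97 in the colon and -0.05 in the bladder. Among Ctrl mice, mouse 788 was at the same end of its group in both tissues for 5 of 10 members, highest for Per2, Nr1d1, and Dbp and lowest for Arntl and Cry1, against 19.8% of all genes. These are descriptions of single animals with no test.

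The ratio of output to activator within a library does not depend on the scaling between libraries. The log2 ratio of Dbp to Arntl TPM was -2.90, -3.82, and -3.55 in Ctrl colon mice 788, 786, and 787, and 0.48, -1.78, and -2.07 in Y/T KO colon mice 759, 783, and 780. It was 0.41, 0.35, and 2.21 in Ctrl bladder mice 784, 785, and 788, and 2.19, 0.89, and 1.77 in Y/T KO bladder mice 782, 783, and 780. The colon genotypes did not overlap and the bladder genotypes did, and mouse 759 was the only colon library in the range of the bladder. For the colon genotypes this restates the separate values. Dbp lay above Ctrl and Arntl below it in every Y/T KO colon library, so that their ratio could not overlap. For Nr1d1 to Arntl the ratio ran from -2.04 to -1.0 in Ctrl colon, -1.14 to 0.48 in Y/T KO colon, 0.85 to 2.11 in Ctrl bladder, and 0.94 to 2.26 in Y/T KO bladder, so that here the colon genotypes overlapped and the tissues did not. The ratio of Dbp to Clock ran from -3.23 to -1.52 in Ctrl colon and -1.15 to 0.80 in Y/T KO colon, and from 0.48 to 2.02 and 0.62 to 2.70 in Ctrl and Y/T KO bladder. That of Per3 to Npas2 in TPM overlapped between genotypes in both tissues (-2.32 to -1.72 and -2.01 to -0.79 in the colon, -1.66 to 0.19 and -0.13 to 0.61 in the bladder). In coverage, which was low for Npas2, the colon genotypes narrowly did not overlap (1.388 to 1.703 in Ctrl, 1.706 to 2.873 in Y/T KO). The bladder genotypes overlapped in coverage as well (2.19 to 3.62 and 3.31 to 4.25).

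**Figure D4:**
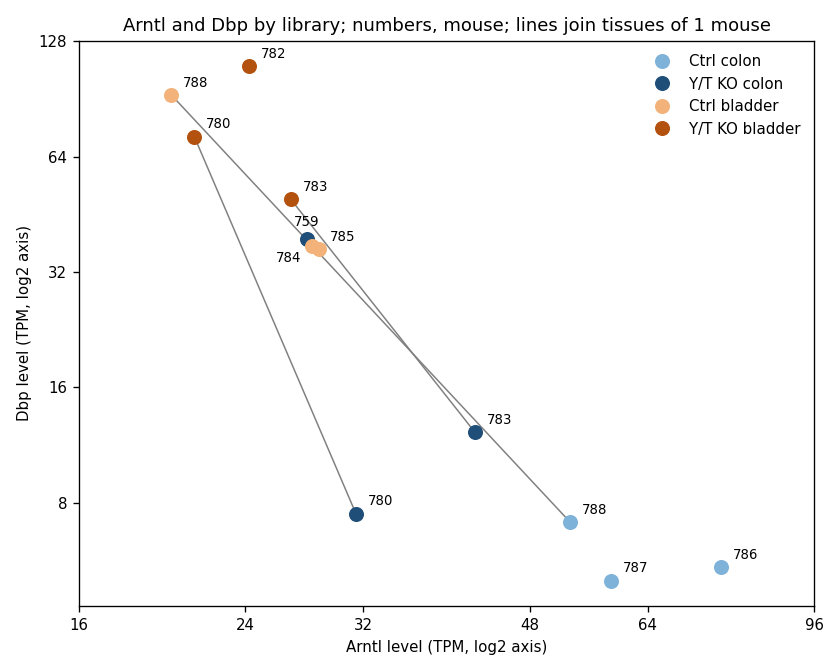
Arntl level against Dbp level in TPM (both axes log2) for the 12 libraries, with the mouse number beside each point and a line between the tissues of a mouse. Ctrl colon lies at high Arntl and low Dbp, the bladder libraries at low Arntl and high Dbp, and Y/T KO colon mouse 759 (27.9 and 39.0 TPM) beside Ctrl bladder mice 784 and 785.

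Pooled over the groups, most members varied more between mice of a group than the median gene. On the log2 scale the SD within groups, pooled over the 4 groups, was 0.77 for Dbp (92.2th percentile of 16298 genes) and 0.55 for Nr1d1 (85.2th percentile), against a median of 0.27. It was above the median for 8 of 10 members and above the 75th percentile for 6, whereas Arntl (0.27) and Npas2 (0.26) lay just below the median. The spread was not even over the groups. Cry1 had an SD of 0.04 in Ctrl colon and 0.77 in Y/T KO colon, and Dbp had 0.28 and 1.22. In Y/T KO colon Dbp ranged 5.21-fold between mice, and 1.63-fold between mice 783 and 780 alone. Without mouse 759, an alternative chosen after seeing the data, the pooled SD was 0.53 for Dbp, 0.51 for Nr1d1, 0.24 for Cry1, and 0.20 for Nr1d2 against a median of 0.26, and 7 members were above the median and 4 above the 75th percentile.

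**Figure D5:**
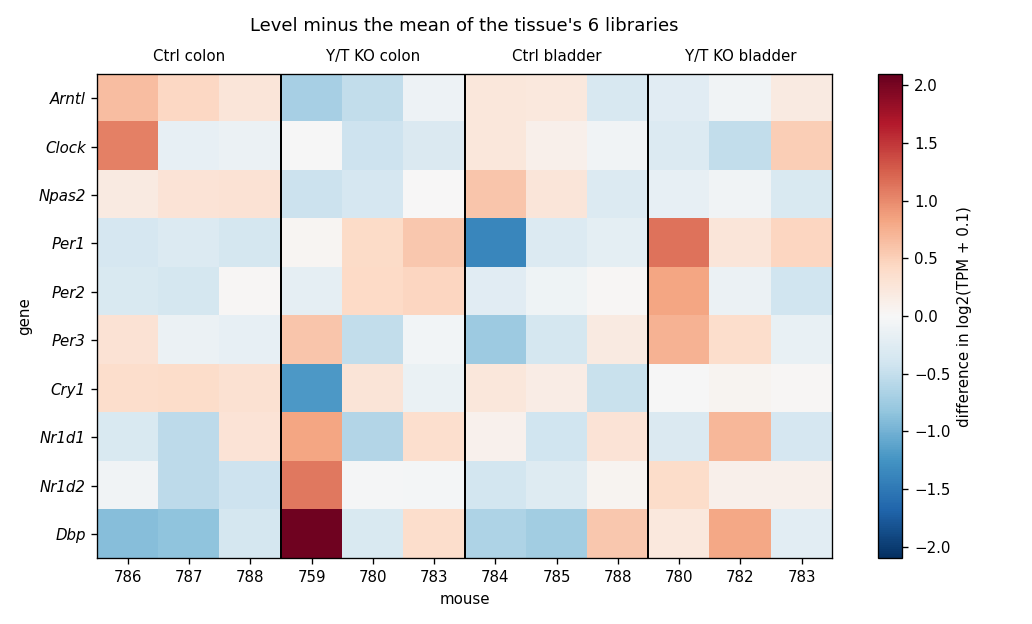
Level of each clock gene in each library as the difference in log2(TPM + 0.1) from the mean of the 6 libraries of its tissue (color, red above and blue below), with libraries grouped by genotype and tissue and named by mouse. Y/T KO colon mouse 759 shows the highest Dbp (2.05) with high Nr1d1 and Nr1d2 and low Arntl and Cry1.

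The genes nearest in pattern were sought by the root mean square difference from Dbp and from Arntl, after centering each gene within its tissue, over the 12 libraries and 16297 other genes. Among members, Nr1d2 was nearest to Dbp (rank 6, 0.51 on the log2 scale), then Nr1d1 (rank 11, 0.54) and Per3 (rank 98), where the median gene stood at 0.87. Nearest to the mirror image of Dbp were Cry1 (rank 3, 0.47), Arntl (rank 32), and Npas2 (rank 139). Without mouse 759, an alternative chosen after seeing the data, Nr1d1 was at rank 125 and Nr1d2 at rank 392, Per3 at rank 1512, and Arntl and Cry1 at ranks 102 and 153 of the mirror image. For Arntl the nearest member was Npas2 (rank 54, 0.24), and Nr1d2 was at rank 344 of its mirror image, against ranks 608 and 1352 without mouse 759. Outside the set the genes nearest to Dbp were Gm11249, Gm20522, H2-T23, Gsta4, and Gpx2 (0.32 to 0.50), and those nearest to its mirror image were Bcl9l, BC002059, Gm5830, Kmt2a, and Arl4a (0.43 to 0.47). Nearest to Arntl were Slc18b1, Timd4, Kbtbd11, Phlpp2, and Synpo2 (0.16 to 0.19), and nearest to its mirror image Amdhd2, Kcnj8, Siah1b, Cxcl16, and Gm17251 (0.16 to 0.21). These names are for all 12 libraries. Without mouse 759 only Gm20522 stayed among the 5 nearest to Dbp, and none stayed for its mirror image. Slc18b1 and Timd4 stayed for Arntl, and Siah1b for its mirror image. H2-T23 was at 118.9 TPM in the colon of mouse 759 and at 9.83 to 16.4 in the other colon libraries. The libraries share mice and tissue means, and genes of like spread come out near each other by this measure.

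Other genes of the clock and its output were read beside the members. Of 24 listed genes the filter kept 22 for the colon and 23 for the bladder, and 0 were called between genotypes in either tissue (limma). Colon estimates with an unadjusted p under 0.05 were above 0 for 3 genes and below 0 for 2 (5.14% and 4.59% of all genes), with a list median of -0.07 against 0.01 for all genes. Ciart, a repressor of the Arntl and Clock pair, differed by a log2 of 1.24 (adjusted p = 0.493) at levels of only 0.17 to 1.59 TPM. Tef, a PAR bZIP factor like Dbp, held 8.54, 10.1, and 3.37 TPM in Ctrl colon against 20.1, 17.2, and 10.4 in Y/T KO colon, without overlap, and differed by 1.23 (adjusted p = 0.446). Cry2, the paralog of Cry1, held 14.6, 16, and 18 TPM in Ctrl colon against 8.93, 11.7, and 6.32 in Y/T KO colon, also without overlap, and differed by -0.85 (adjusted p = 0.372).

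In the bladder 2 of these genes had an unadjusted p under 0.05, both higher in Y/T KO (6.64% of all genes were), and the list median was 0.11 against 0.00 for all genes. Hlf, the third PAR bZIP factor, was at 4.90, 4.06, and 6.25 TPM in Ctrl bladder and 12.5, 8.72, and 15.2 in Y/T KO bladder, without overlap, and differed by 1.23 (adjusted p = 0.123). Usp2, a deubiquitinase with a strong daily rhythm, was at 4.53, 5.13, and 2.79 TPM against 8.14, 7.98, and 21 and differed by 1.44 (adjusted p = 0.224), and Ciart differed by 1.03 (adjusted p = 0.475). For none of these genes was the interaction with tissue called, and the interaction estimates of Usp2 and Bhlhe40 were 1.95 (adjusted p = 0.28) and -1.10 (adjusted p = 0.251).

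Between tissues, the list held calls in both directions, where 25.3% of all genes were called higher and 25.1% lower in Ctrl and 25.6% and 25.8% in Y/T KO. In Ctrl mice Tef (2.42), Fbxl21 (2.28), Bhlhe41 (2.15), Rora (2.14), Hlf (1.89), Arntl2 (1.63), Btrc (0.88), Csnk1e (0.77), and Nampt (0.56) were called higher in the bladder on the log2 scale, which made 9 of 23, and Bhlhe40 (-0.94), Wee1 (-0.74), Csnk1d (-0.36), and Nono (-0.31) were among the 6 called lower. In Y/T KO mice Hlf (2.93), Rora (2.76), Bhlhe41 (2.41), Arntl2 (1.41), Tef (1.40), Fbxl21 (1.34), Nfil3 (1.23), Cry2 (1.19), Nampt (0.62), and Csnk1e (0.54) were called higher, 10 of 23, and Bhlhe40 (-2.04) and Prkaa2 (-0.57) were among the 3 called lower. All 3 PAR bZIP factors, Dbp, Tef, and Hlf, were thus called higher in the bladder in both genotypes.

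Per1 responds to more than the clock, so glucocorticoid-induced genes (18 listed) and immediate-early genes (16 listed) were read in the same libraries. In Y/T KO bladder mouse 780, which had the highest Per1 of all libraries, the glucocorticoid-induced genes Fkbp5 and Tsc22d3 were at 97.8 and 202.5 TPM, both above every other library, a pair chosen after the values were seen. Of the 18 listed genes 7 were highest in that library (8.85% of all genes were). Among the 6 bladder libraries 10 were highest there (16.8% of all genes). The excess was not particular to this list. Of the 24 other clock and clock output genes 8 were highest in that library, and 11 among the bladder libraries. Of the 16 immediate-early genes 2 were highest there by either count. Of the 18 glucocorticoid-induced genes 0 were called in either tissue (limma), with 4 higher and 0 lower at an unadjusted p under 0.05 in the bladder (median 0.38) and 4 higher and 1 lower in the colon (median 0.28). Of all genes 6.64% were higher and 8.2% lower at that p in the bladder, and 5.14% and 4.59% in the colon. The largest differences were Sult1a1 (1.09, adjusted p = 0.103), Gpx3 (0.99), and Fkbp5 (0.84) in the bladder and Cebpd (0.81), Gpx3 (0.73), and Dusp1 (0.62) in the colon. Of the 15 immediate-early genes tested 0 were called, and in the colon 8 were higher at an unadjusted p under 0.05, with all 15 estimates above 0 (median 0.62) where 50.9% of all genes were above 0, led by Fosl1 (2.64, adjusted p = 0.143), Fos (1.26), and Fosb (1.17). In the bladder 10 of the 15 estimates were below 0 (median -0.45) against 49.8% of all genes, led by Junb (-1.82, adjusted p = 0.118), Fosl1 (-1.22), and Fos (-1.05), while Per1 was above Ctrl there. Between bladder and colon, 4 glucocorticoid-induced genes were called higher and 5 lower in Ctrl (5 and 5 in Y/T KO), and 4 immediate-early genes higher and 1 lower (1 and 5 in Y/T KO), where about 25% of all genes were called in each direction, and 0 of either list were called in the interaction. The part of either group in the Per1 values was not tested.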

How the data were processed

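Groups were taken from the labels, and the members and companion lists were chosen with earlier results of these data known. Per the labels, stranded libraries of polyadenylated RNA were made by the authors with a TruSeq kit, and HISAT2, StringTie, and DESeq2 are named in the submitters' processing notes with build GRCm38 (versions not given in the sources used here). The authors deposited StringTie tables with TPM, FPKM (fragments scaled to transcript length and library), and coverage, the mean read depth of a gene. The aligned gigabases are an estimate, taken as the most common ratio of coverage to FPKM among the expressed genes of a library. Read counts were not used here. The counting error of a TPM value was not estimated.

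Rows were summed by gene ID. Each library's TPM was scaled by a size factor (median of ratios), a gene was kept where 3 or more libraries reached 0.5 TPM, and log2(TPM + 0.1) was fitted with limma 3.58.1 in R 4.3.3 (eBayes with trend and robust options) within each tissue, or over all 12 libraries for interaction and tissue contrasts. Tests were two-sided, with Benjamini-Hochberg adjusted p under 0.05. All members passed the filter. Nothing says that mice of a group shared a day or litter. Libraries whose titles share a number (788, 783, 780) were taken as the same animal. Their deviations from group means correlated between tissues by -0.02, 0.09, and 0.06 across genes, and limma's duplicateCorrelation gave 0.06 or 0.05. Such low values do not bear out the pairing. Of companion lists, called clock genes and the 3 largest knockout differences are named (some are not reported here), and for pattern the 5 nearest genes to Dbp and Arntl. The code was tested on simulated data. Alternatives were pseudocounts of 0.5 and 1, 2 filters, no size factors, FPKM, coverage (chosen after seeing the data), plain eBayes, all 12 libraries in 1 fit, an adjusted p of 0.1, and each library left out. Python 3.11.15, pandas 2.3.3, and matplotlib 3.10.9 were used.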

Additional observations from a re-analysis of the deposited data

How the results depend on the processing

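With 3 libraries per group and a TPM scale without read counts, the precision of each value is limited by the spread between mice. No member was called between genotypes or in the interaction under any alternative run, the adjusted p of 0.1 included. The 5 members called between tissues in Ctrl mice were called under each alternative, and the replicate block changed no call in either genotype. Among the values that changed sign, 0 had an adjusted p under 0.05.

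The colon estimate of Per3 turned to -0.016 with TPM as deposited, to -0.0034 with all 12 libraries in 1 fit, and ranged from -0.26 to 0.27 over libraries left out. In the bladder, with libraries left out, Arntl ranged from -0.27 to 0.0185, Nr1d1 from -0.31 to 0.22, Cry1 from -0.17 to 0.18, Clock from -0.49 to 0.0287, and Per2 from -0.17 to 0.46. The interaction ranged from -0.0826 to 0.53 for Clock, -0.49 to 0.087 for Nr1d2, -0.0823 to 0.35 for Npas2, and -0.62 to 3e-04 for Per2. For bladder against colon, Clock ranged from -0.60 to 0.022 and Per2 from -0.0179 to 0.18 in Ctrl, and Clock from -0.37 to 0.15, Cry1 from -0.16 to 0.58, and Per2 from -0.55 to 0.0721 in Y/T KO. With TPM as deposited, Clock turned to 0.21 and Per2 to 0.0835 in Y/T KO, where members called lower numbered 1 instead of 2. Members called higher there, 4 with all libraries, ranged from 1 to 3 with a Y/T KO library left out: 2 without the colon of mouse 783, 1 without the colon of mouse 780, and 2 without the bladder of mouse 780. Per1 in Y/T KO mice also lost its call without trend and robust options (adjusted p = 0.058) and with coverage (0.0762). Genes called in the colon numbered 1 to 43 lower and 2 to 32 higher over all alternatives, and in the bladder 8 to 94 lower and 2 to 46 higher. The cause of these changes was not tested.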
